A study of Homo sapiens with 28 samples.

Results

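Promoters that carried a TWIST1 ChIP-seq peak in the CRC line LoVo and none in the CRC line MDST8 were selected from the deposited peak lists. A promoter was the window of 1000 bp on either side of the outermost 5′ end of a protein-coding GENCODE gene on chromosomes 1 to 22 and X. Of 19968 such promoters, 3103 met this rule, which is 15.5% (95% exact Clopper-Pearson interval 15 to 16%). A further 6341 promoters had a peak in MDST8 only, 3013 had peaks in both lines and 7511 had none. The peak lists therefore chose the members, and the peak values below describe them without a test, whereas RNA-seq was not used in the choice.

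LoVo is an epithelial human CRC line of the non-CMS4 type, and MDST8 is a human CRC line of the mesenchymal CMS4 type. Each line gave 1 TWIST1 ChIP-seq library from cells labelled wild type. The sample titles also name 1 input control library for each line. RNA-seq comprised 24 libraries, with 3 each of MDST8 wild type (WT), of 5 single-cell-derived MDST8 TWIST1 knockout clones made by CRISPR-Cas9 (TG1, TG2, TG3-2, TG3-5 and TG3-6), of LoVo labelled shRNA control, and of LoVo labelled TWIST1 knockdown and TWIST1 shRNA. The sample titles give TG3-2, TG3-5 and TG3-6 the shared clone name TG3, and they were kept apart here by the numbers in the titles. The labels give DMEM with serum for every sample, while the study's methods list several media without saying which line grew in which. Each clone descends from 1 cell, and the sources used here do not say whether the 3 libraries of a group came from separate cultures, so the p-values measure the spread between these libraries only. Total counts per library ran from 16567606 to 22217009. Levels are CPM, the counts scaled to library size with TMM factors and not divided by gene length, and in bulk RNA fewer cells expressing a gene and less RNA per cell cannot be told apart.

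The targeted gene was checked first. TWIST1 had 0 counts in each of the 3 LoVo libraries labelled shRNA control and 3.8, 5.2 and 5.18 CPM in the 3 with the other label, at least 30.0-fold higher against a floor of 3 counts per library. This bound and those below were taken on RPM, the counts scaled to total counts without TMM factors. The LoVo labels thus ran against the TWIST1 counts, and every LoVo direction below follows the labels. The LoVo cells of the ChIP-seq library were labelled wild type, and which of the 2 RNA-seq groups they resembled in TWIST1 level was not tested. MDST8 WT held 44.7, 52.2 and 40.2 CPM of TWIST1 and the clones had means from 29.3 to 53.3 CPM. These are RNA levels and do not measure the protein. The study checked its knockouts by sequencing of the guide site and by Western blot, and its LoVo knockdown by Western blot too. The 2 LoVo groups differed widely, with 3795 of 14270 genes called higher and 3725 lower between them, and 10 of 11 colon epithelium markers had lower calls in those labelled TWIST1 shRNA (EPCAM 589.6 against 319.8 CPM, HNF4A 174 against 10.9 CPM). Of 6 mesenchymal markers 4 were tested between the LoVo groups, and all 4 were lower with the label TWIST1 shRNA too. All 11 colon epithelium markers were called higher in both LoVo groups than in MDST8 WT, where CDH1, CDX2, CEACAM5, HNF4A and LGALS4 had 0 counts. The 8 immune and endothelial markers summed to at most 2.29 CPM in any library of these groups.

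TWIST1 is a basic helix-loop-helix transcription factor that drives epithelial-to-mesenchymal transition (EMT) in development and in carcinoma. Such factors bind DNA as dimers at E-boxes, written CANNTG, and CATCTG is the E-box that the study examined in the SPON2 promoter. A promoter peak marks enrichment of DNA recovered with the antibody, and does not by itself say whether a gene is on or off.

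The LoVo summits below are shown because the results below turn on these genes: FYCO1, FRYL, USP17L22, the pair ECD and FAM149B1, and OR1L6 had the lowest peak p-values, and CDX2, CXCL1 and CDH2 differed widely in RNA between the groups and were picked after their values were seen. Each run holds 50 bp on either side of the summit in hg38, is written 5′ to 3′ on the strand of the gene named first, and has every CANNTG in capitals.
FYCO1 (chr3:45995436-45995536, minus strand, intron of FYCO1): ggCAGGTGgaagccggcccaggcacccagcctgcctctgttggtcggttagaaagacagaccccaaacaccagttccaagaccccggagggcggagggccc
FRYL (chr4:48780924-48781024, minus strand, intergenic): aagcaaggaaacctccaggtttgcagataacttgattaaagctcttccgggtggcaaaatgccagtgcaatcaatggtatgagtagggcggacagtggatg
ECD (chr10:73168483-73168583, minus strand, intron of both ECD and FAM149B1): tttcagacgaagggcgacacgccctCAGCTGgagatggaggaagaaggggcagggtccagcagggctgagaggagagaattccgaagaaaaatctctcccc
USP17L22 (chr4:9268501-9268601, plus strand, coding exon): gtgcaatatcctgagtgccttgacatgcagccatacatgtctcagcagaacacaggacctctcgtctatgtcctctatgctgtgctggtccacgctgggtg
OR1L6 (chr9:122743395-122743495, plus strand, intron): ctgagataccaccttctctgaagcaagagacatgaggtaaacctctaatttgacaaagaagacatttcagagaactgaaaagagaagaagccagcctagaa
CDX2 (chr13:27968718-27968818, minus strand, coding exon): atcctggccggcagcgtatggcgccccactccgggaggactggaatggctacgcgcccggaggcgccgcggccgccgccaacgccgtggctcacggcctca
CXCL1 (chr4:73869897-73869997, plus strand, coding exon): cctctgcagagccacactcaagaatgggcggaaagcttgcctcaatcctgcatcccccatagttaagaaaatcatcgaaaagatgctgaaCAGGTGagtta
CDH2 (chr18:28178493-28178593, minus strand, intergenic): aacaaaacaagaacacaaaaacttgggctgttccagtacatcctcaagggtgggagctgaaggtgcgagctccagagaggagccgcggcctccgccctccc

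The windows of FYCO1, ECD and CXCL1 held 1 CANNTG each, whereas the windows of FRYL, USP17L22, OR1L6, CDX2 and CDH2 held none. None of these windows held CATCTG or its complement CAGATG. These are matches of letters and not sites of binding.

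Most of the peaks at these promoters were weak. The 3103 members carried 3221 distinct LoVo peaks, of which 232 lay over more than 1 member promoter, and 436 members shared a peak with a neighbor. The median fold enrichment over background was 2.28 (range 1.54 to 5.10), the median p-value was 0.00437 and the median width was 350 bp. Only 754 of the 3221 peaks (23.4%) had a p-value of at most 0.001 and 17 had a q-value of at most 0.05. In 2044 members (65.9%) every promoter peak had a q-value of 1. LoVo peaks at promoters with peaks in both lines had a median enrichment of 2.29, and all 333621 LoVo peaks had one of 2.25. With 1 library per line, neither the peaks nor the absence of an MDST8 peak has a replicate check.

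Many members had an MDST8 peak outside the window but near it. An MDST8 peak lay within 2000 bp of the 5′ end in 28.7% of the members, within 5000 bp in 67.8% and within 10000 bp in 89.3%, with a median distance of 3320 bp. The MDST8 list held 338877 peaks in all. Whether these distances differ from those that such a density gives at any promoter was not tested. A LoVo peak was found at 32.2% of the promoters with an MDST8 peak and at 29.2% of those without one. At the edge of the window, the LoVo peaks of PRDM11, PDE7A and CCDC187 came to 998, 999 and 1000 bp from the 5′ end and were counted, whereas those of YY1, CREB3L4 and FAM83D at 1001, 1002 and 1002 bp were not. The nearest MDST8 peaks of DNAI1, GDF3 and MEIOSIN, all members, lay at 1002 bp, and those of HIVEP3, KIF2B and LARP6, which were not counted, lay at 999 bp. The weakest peaks kept were those of ART1, with a MACS2 p-value of 0.0496, and of KRR1 and PSIP1, with 0.0495 each.

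Summits of the member peaks were spread over the whole window, with fewer just upstream of the 5′ end. Of 3468 pairs of a member and a peak, 22.3% had the summit 501 to 1000 bp upstream, 18.4% 1 to 500 bp upstream, 20.4% 0 to 499 bp downstream and 22.1% 500 to 1000 bp downstream. In the last 100 bp before the 5′ end the share was 2.94%, against 4.75% of the 7677 MDST8 summits at promoters with an MDST8 peak only. This is a comparison of 2 libraries and was not tested.

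**Figure D1:**
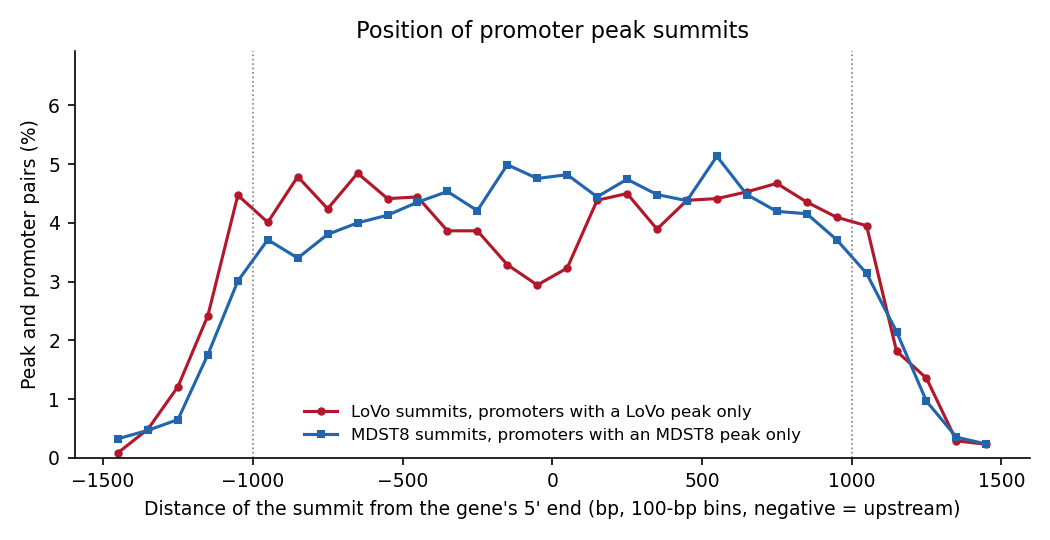
Position of peak summits relative to the outermost 5′ end of the gene, in bins of 100 bp, as a percent of all summits of each class; the x axis is in bp with upstream to the left. Summits at promoters with a LoVo peak only dip to 2.94% in the bin just upstream of the 5′ end, where summits at promoters with an MDST8 peak only are at 4.75%.

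In base composition the members lay a little below the average promoter. Their median GC content was 53.9%, against 55.0% over all 19968 promoters, 56.1% for promoters with an MDST8 peak only and 53.4% for those with no peak. The observed over expected CpG ratio reached 0.6, a usual limit for CpG islands, in 48.6% of the members and in 52.1% of all promoters. Promoters with an MDST8 peak only reached it in 60.0% and those with peaks in both lines in 61.0%.

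The E-box that the study examined was found at the member summits about as often as beside them. CATCTG or CAGATG, searched on both strands, was within 50 bp of 171 of the 3221 member summits, 5.31% (95% exact interval 4.56 to 6.14%), and in 5.48% of equally wide windows centred 500 bp away on both sides (4.94 to 6.06%). Over all LoVo peaks the shares were 7.37% at the summit and 6.59% in the flanks. Any CANNTG, which includes CATCTG, lay within 50 bp of 37.2% of the member summits and in 35.7% of their flanks, against 44.9% and 40.4% over all LoVo peaks. CATATG, which is also a CANNTG, was at 0.931% and 1.16% for the members. Over the whole promoter window, 66.8% of the members and 65.4% of all promoters held CATCTG or its complement.

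Members were found on every chromosome tested, and their share was highest on X. On X 177 of 859 promoters were members, 20.6% (17.9 to 23.5%), followed by chromosome 6 with 19% and chromosome 16 with 18.3%, and the lowest shares were 11.4% on chromosome 21 and 11.5% on chromosome 20. The peak lists that chose the members also gave the peak densities, which are set beside these shares as a description. X held 90.0 LoVo peaks and 25.3 MDST8 peaks per Mb, a ratio of MDST8 to LoVo of 0.281, whereas the ratio was 0.753 on chromosome 6 and 1.55 on chromosome 21. RNA levels also differed by chromosome. The median log2 fold change of LoVo labelled shRNA control over MDST8 WT was -0.50 for all 455 genes tested on X and -0.52 for the 100 members among them, and it was 0.48 and 0.68 on chromosome 6.

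**Figure D2:**
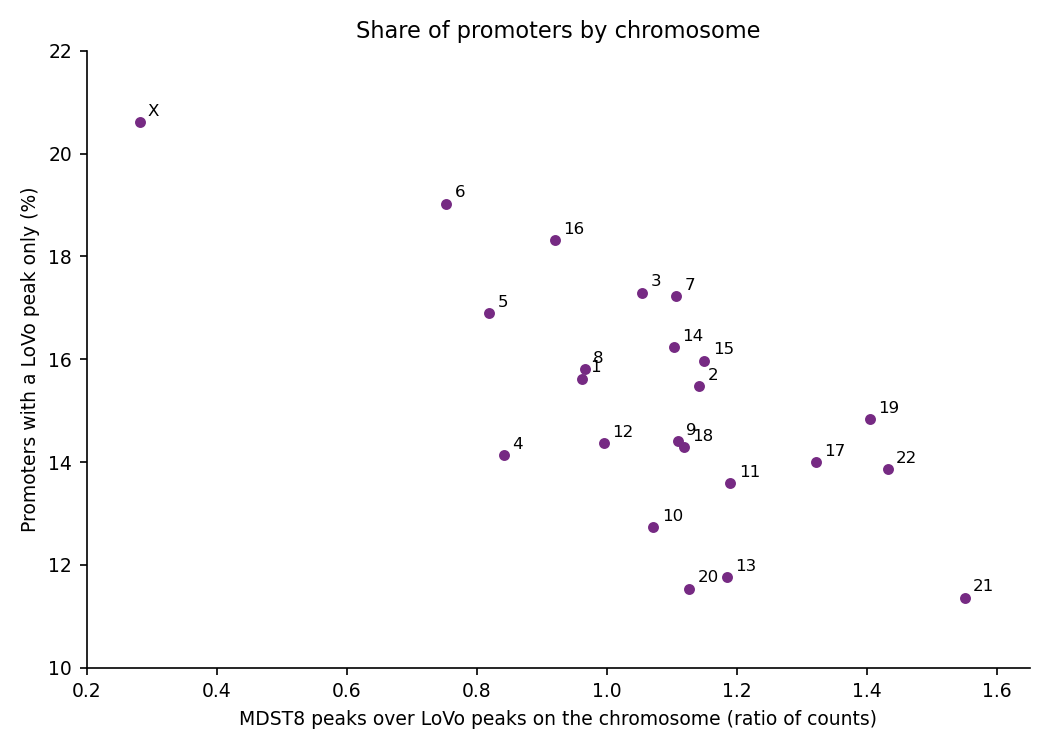
Share of protein-coding promoters with a LoVo peak only (y axis, percent) against the number of MDST8 peaks per LoVo peak (x axis), 1 point per chromosome from 1 to 22 and X; both axes come from the same peak lists. X stands at a ratio of 0.281 and 20.6% and chromosome 21 at a ratio of 1.55 and 11.4%.

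By gene family, the members ranged from genes silent in both lines to genes among the most transcribed. Olfactory receptors, the odorant receptors of the nasal epithelium, gave 74 members of 415 promoters (17.8%), and none of the 74 reached 1 RPM in any of the 3 groups. All 4 interferon alpha genes with a LoVo peak, of 13, were members (IFNA1, IFNA4, IFNA8 and IFNA14), no MDST8 peak lay at any of the 13, and their RNA was at or near 0. Protocadherins, cell adhesion molecules of the nervous system, gave 15 of 65 (23.1%), histones 19 of 88 (21.6%), subunits of the respiratory chain and ATP synthase 20 of 89 (22.5%), HOX genes 8 of 39 (20.5%), zinc finger proteins 84 of 566 (14.8%), cytosolic ribosomal proteins 12 of 89 (13.5%) and mitochondrial ribosomal proteins 9 of 78 (11.5%). The 11 basic helix-loop-helix partners and ID inhibitors listed for TWIST1 gave no member, and TWIST1 itself had an MDST8 peak only.

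Expression of the members was set beside that of the other classes of promoter. A mean of at least 1 RPM was reached by 57.6% of them in LoVo labelled shRNA control (95% exact interval 55.8 to 59.3%), by 59.1% in LoVo labelled TWIST1 shRNA (57.4 to 60.8%) and by 55.5% in MDST8 WT (53.7 to 57.2%). Over all promoters these shares were 60.7%, 62.5% and 59.3%. For promoters with an MDST8 peak only they were 68.0%, 70.3% and 68.3%, for those with peaks in both lines 72.4%, 74.3% and 71.2%, and for those with no peak 51.1%, 52.5% and 48.5%. The median level of the members was 5.4, 5.73 and 3.18 RPM in the 3 groups, with 14.7, 16 and 15.4 RPM for promoters with an MDST8 peak only, 17.5, 19.4 and 18.1 RPM for those with peaks in both lines and 1.27, 1.64 and 0.663 RPM for those with no peak. The SD of the members' share over the 3 libraries of a group was at most 0.162 percentage points. The members thus lay between promoters without a peak and promoters with an MDST8 peak in all 3 groups.

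**Figure D3:**
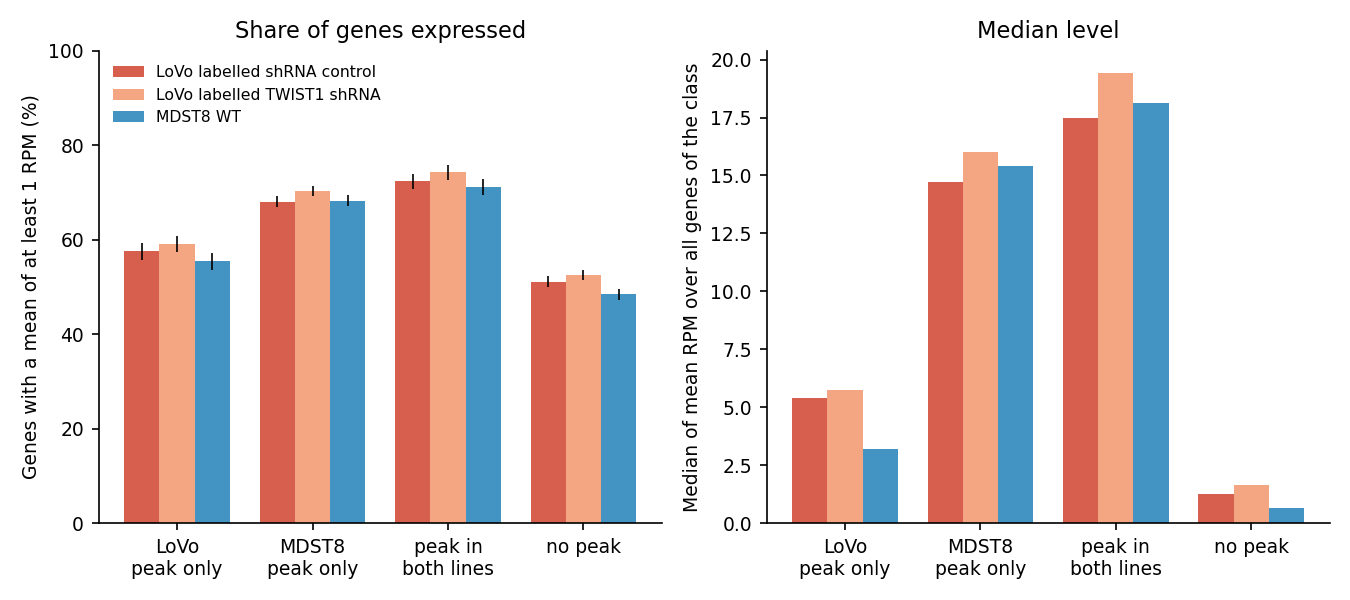
Percent of protein-coding genes with a mean of at least 1 RPM, by peak class of the promoter and RNA-seq group; error bars are 95% exact intervals, which cover counting error only, and the right panel gives the median of the genes' mean RPM. Genes with a LoVo peak only (57.6%, 59.1% and 55.5%) sit below those with an MDST8 peak only and above those with no peak in each group.

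Both lines expressed most of the same members. Of the 3103 genes, 1600 (51.6%) reached 1 RPM in MDST8 WT and in at least 1 LoVo group, 322 (10.4%) only in LoVo, 121 (3.9%) only in MDST8 WT and 1060 (34.2%) in none of these groups. Over all promoters the shares were 55.6%, 9.44%, 3.63% and 31.3%. Base composition moved with expression. Among promoters with a CpG ratio of at least 0.6, 79.4% of the members and 79.8% of all promoters reached 1 RPM in LoVo labelled shRNA control, and below 0.6 the shares were 37.0% and 39.9%. Members with a peak at a p-value of at most 0.001 reached 1 RPM there in 63.2% of 779, the other members in 55.7% of 2324.

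Whether RNA of these genes was higher in the line that had the peak was asked by setting each LoVo group against MDST8 WT. A gene counted as called when its log2 fold change exceeded 0.58 in either direction and its adjusted p-value (edgeR quasi-likelihood test, Benjamini-Hochberg) was below 0.05. Of the 3103 members, 1987 passed the filter on low counts. In LoVo labelled shRNA control, 704 (35.4%) were called higher than in MDST8 WT and 580 (29.2%) lower. Over all 15844 genes tested, 33.1% were called higher and 33.4% lower, and over the 13414 with a protein-coding promoter 33.0% and 32.1%. With a LoVo peak only, higher calls outnumbered lower calls, while with an MDST8 peak only 30.1% of 4752 were higher and 33.5% lower, and with no peak 35.7% of 4331 were higher and 31.5% lower. In LoVo labelled TWIST1 shRNA, 647 members (32.6%) were higher and 584 (29.4%) lower, beside 32.5% and 30.4% of all genes tested (31.3% and 29.9% of protein-coding promoters). Both LoVo groups were called higher at 504 members (25.4%) and lower at 403 (20.3%), beside 23.7% and 22.6% of all genes tested (23.3% and 21.7% of protein-coding promoters). The median log2 fold change of the members was 0.11 for the libraries labelled shRNA control and 0.01 for those labelled TWIST1 shRNA, against -0.01 and 0.01 over all genes tested. The balance turned with limma on log2(count + 1) without scaling factors, which changes both the test and the scaling: 628 members were higher and 649 lower in the libraries labelled shRNA control, and 597 were higher and 645 lower in those labelled TWIST1 shRNA. Line and count table coincide, so a difference between the lines and one between their processing cannot be told apart.

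**Figure D4:**
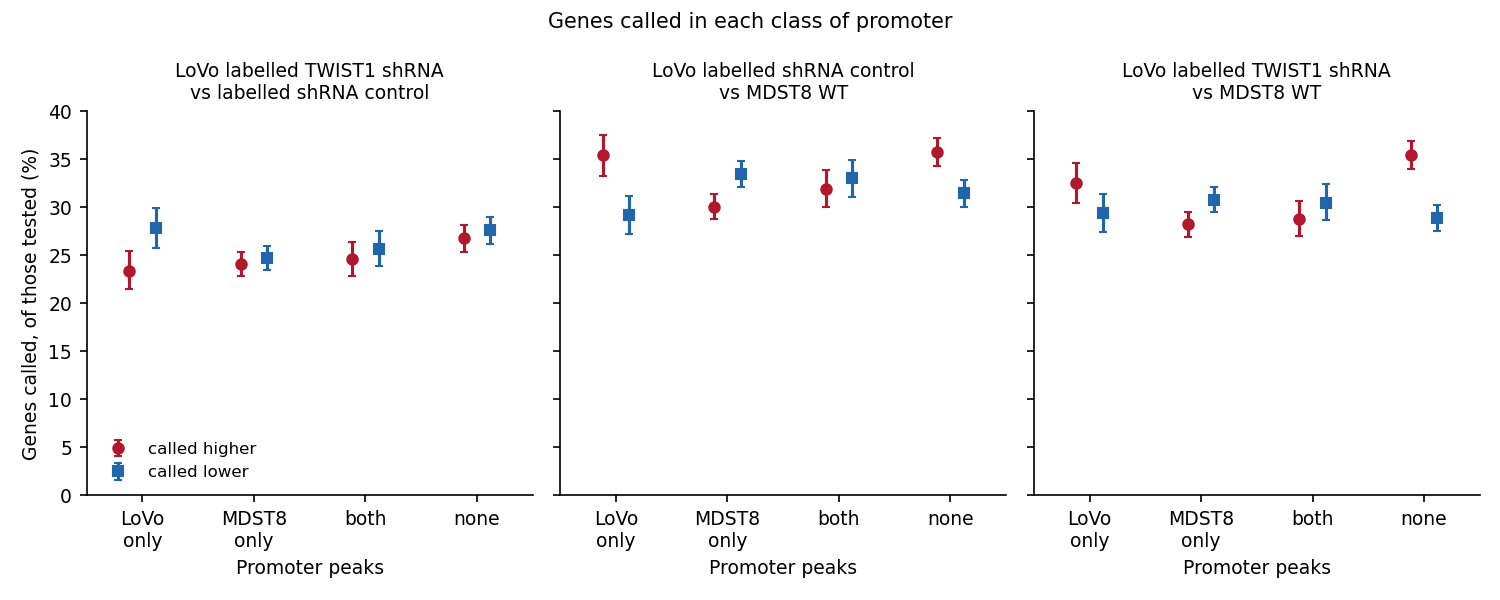
Percent of tested genes called higher and lower, by peak class of the promoter, for each comparison; error bars are 95% exact intervals over genes, which are not independent replicates. In LoVo labelled shRNA control against MDST8 WT, genes with a LoVo peak only were higher in 35.4% and lower in 29.2%.

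The members with the widest difference between the lines were off in one line. SPINT2, which encodes a membrane inhibitor of serine proteases in epithelia, had 191, 217 and 219 CPM in LoVo labelled shRNA control and 172, 207 and 239 CPM in LoVo labelled TWIST1 shRNA, and 0 counts in all 3 MDST8 WT libraries. It was at least 1261-fold and 1343-fold higher in the LoVo groups. DSC2, a desmosomal cadherin, had 74.8, 84.9 and 76.5 CPM and 75.5, 76.4 and 71.7 CPM in the LoVo groups, at least 476-fold and 485-fold above MDST8 WT. GJB2, the gap junction protein connexin 26, was at least 318-fold and 356-fold higher, STK26, a serine/threonine kinase, at least 378-fold and 338-fold, and SH2D4A, an SH2 domain adaptor, at least 364-fold and 259.9-fold, all with 0 counts in MDST8 WT. Genes were named here only if their LoVo libraries did not overlap with MDST8 WT, so the lack of overlap is a condition of the choice.

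In the other direction, the peak lay in LoVo and the RNA was found in MDST8. ST8SIA2, a sialyltransferase that makes polysialic acid, had 56.2, 57.6 and 60.5 CPM in MDST8 WT and 0 counts in all 6 LoVo libraries, at least 368-fold and 349-fold lower in LoVo. ADAMTS12, a secreted metalloprotease, had 57.5, 54.8 and 54.5 CPM in MDST8 WT, SYT14, a synaptotagmin, 44.9, 51.3 and 47.8 CPM and GPR85, an orphan receptor, 30.4, 31.6 and 28.1 CPM, all with 0 counts in LoVo. INSYN2B had 128, 126 and 124 CPM and a single count in 1 of the 6 LoVo libraries. Of all members, 43 had 0 counts in the 3 MDST8 WT libraries and at least 5 CPM in LoVo labelled shRNA control, and 30 the reverse, out of 228 and 188 such genes over all protein-coding promoters.

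Epithelial genes were mostly higher in LoVo whether or not the promoter was a member. Of the 40 listed junction and keratin genes 8 were members, and of the 7 tested 6 were called higher in LoVo labelled shRNA control than in MDST8 WT and 0 lower, as were 29 and 0 of the 32 listed genes tested that were no members. TJP3, a tight junction scaffold, had 58.4, 63.5 and 68.1 CPM there and 0, 0.0505 and 0 CPM in MDST8 WT. CGN, the tight junction protein cingulin, had 64.5, 61.4 and 66.9 CPM and 1.91, 1.16 and 1.72 CPM. TJP1 (ZO-1) was higher by 1.76 on the log2 scale (standard error 0.05) and KRT7, a keratin of simple epithelia, by 3.35, while CLDN12 had a log2 fold change of -0.17 and was not called, and the desmosomal plakophilin PKP1 had 0 counts throughout. Between the LoVo groups CGN, TJP3 and CLDN12 were lower with the label TWIST1 shRNA (log2 fold changes -1.64, -0.74 and -0.71). KRT7 went the other way, from 10.1, 11.4 and 12 CPM to 393, 442 and 464 CPM, a log2 fold change of 5.30 (standard error 0.09).

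Of the 16 listed transcription factors that oppose EMT, 3 were members (CDX2, FOXA2 and GRHL1), and all 3 were higher in both LoVo groups than in MDST8 WT. All 12 tested of the others on the list were higher in LoVo labelled shRNA control too. Of the 42 listed intestinal identity genes 4 were members, of which 2 were higher and 1 lower in LoVo labelled shRNA control and 1 was not tested, while of the 31 others tested 29 were higher and 1 lower. CDX2, the homeobox factor that sets intestinal identity, had 253, 258 and 278 CPM in LoVo labelled shRNA control, 29.3, 30.1 and 34.9 CPM in LoVo labelled TWIST1 shRNA and 0 counts in MDST8 WT. The LoVo groups were at least 1589-fold and 205-fold above MDST8 WT, and LoVo labelled TWIST1 shRNA stood at -3.04 against LoVo labelled shRNA control on the log2 scale (edgeR quasi-likelihood test, Benjamini-Hochberg adjusted p = 1.3e-15). Its peak had a fold enrichment of 2.51 and a p-value of 0.00248. FOXA2, an endodermal pioneer factor, followed the same order with 53.7, 56.4 and 57.2 CPM, 4.27, 4.55 and 4.57 CPM and 0.0529, 0.303 and 0.151 CPM. LGALS4, the gut galectin-4, had 16.6, 17.1 and 19.8 CPM, 1.2, 1.75 and 2.51 CPM and 0 counts. GRHL1, an epithelial grainyhead factor, had means of 10.2, 14.1 and 2.55 CPM in LoVo labelled shRNA control, LoVo labelled TWIST1 shRNA and MDST8 WT. It did not follow the order of FOXA2 and was not called between the LoVo groups. GATA4, a factor of proximal gut and heart, was the exception, with 32, 37.4 and 33.9 CPM in MDST8 WT and at most 0.254 CPM in any LoVo library. FABP2, the intestinal fatty acid binding protein, was not tested, with at most 0.229 CPM in any of the 9 libraries.

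Among 45 listed mesenchymal genes 6 were members, of which 3 were higher and 2 lower in LoVo labelled shRNA control than in MDST8 WT. Of the 33 others tested, 3 were higher and 27 lower, and whether the members differed from them was not tested. CDH2, the N-cadherin gained in EMT, had 147, 149.5 and 147 CPM in MDST8 WT, 0.123, 0.0509 and 0.515 CPM in LoVo labelled shRNA control and 0 counts in LoVo labelled TWIST1 shRNA. MMP14, a membrane matrix metalloprotease, was lower in LoVo too, with means of 83.9 and 59 CPM against 1348 CPM. SERPINE2, an inhibitor of serine proteases, was higher, with 750.3, 769.9 and 733 CPM, 213, 226 and 244 CPM and, in MDST8 WT, 91.4, 91.8 and 91.7 CPM. LAMA4, a basement membrane laminin, and TIMP3, an inhibitor of metalloproteases, were also higher than in MDST8 WT (log2 fold changes 7.29 and 3.78 for LoVo labelled shRNA control). PDGFRB, a growth factor receptor of stromal cells, had a mean of 1.63 CPM against 1.61 CPM and was not called. Of the 16 listed EMT transcription factors 3 were members, of which 1 was higher and 1 lower in LoVo labelled shRNA control, with 3 higher and 7 lower of the 11 others tested. PRRX1, a homeobox factor of mesenchyme, had 4.85, 3.15 and 4.12 CPM, 0.0521, 0.117 and 0.111 CPM and, in MDST8 WT, 28.1, 29.7 and 27 CPM, SNAI3 was higher in LoVo (log2 fold change 2.46), and KLF8 was not tested, with at most 1.95 CPM in any of the 9 libraries.

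Of the WNT signaling genes listed, 5 were members, of which 4 were higher and 1 lower in LoVo labelled shRNA control than in MDST8 WT, with 8 higher and 9 lower of the 20 others tested. RNF43, a ubiquitin ligase that removes WNT receptors, had 38.1, 38.1 and 35.2 CPM, 9.28, 8.12 and 8.08 CPM in LoVo labelled TWIST1 shRNA and 0 counts in MDST8 WT. MYC, a growth regulator and WNT target, had 584, 598 and 579 CPM, 296, 319.6 and 338 CPM and 78, 79.6 and 84.8 CPM in the same order. NKD2, a feedback inhibitor of the pathway, had 52.8, 53.9 and 63.3 CPM, 25.9, 26.3 and 31.2 CPM and 3.65, 2.63 and 2.42 CPM. RNF43, MYC and NKD2 also had lower levels with the label TWIST1 shRNA than with the label shRNA control, past the threshold (log2 fold changes -2.10, -0.86 and -0.998). SP5, a WNT-induced factor, was higher than in MDST8 WT by 4.64 on the log2 scale, and PROX1, a homeobox factor, was lower (-1.91).

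Of 40 listed secreted and adhesion genes that face the stroma 7 were members, of which 3 were higher and 3 lower in LoVo labelled shRNA control than in MDST8 WT, with 14 higher and 10 lower of the 28 others tested. CXCL1, a neutrophil chemokine, had 268, 276 and 282 CPM, 52, 58.4 and 57.1 CPM in LoVo labelled TWIST1 shRNA and 13.2, 10.9 and 8.93 CPM in MDST8 WT. CCL20, another chemokine, had 41.3, 46.1 and 38 CPM, 23.3, 24.8 and 20.1 CPM and 0.159, 0.253 and 0.202 CPM. ITGA5, the fibronectin receptor subunit, ran in the opposite order, with 29.9, 26.8 and 26.3 CPM, 113, 119 and 126 CPM and 392, 391 and 385 CPM. The groups of these 3 genes did not overlap. TGFB2, a growth factor, was higher in LoVo labelled shRNA control than in MDST8 WT (log2 fold change 0.95), TGFB1 and the integrin ITGB5 were lower (-1.45 and -1.30), and CSF1, a macrophage growth factor, was not called (0.39).

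Several gene families differed between LoVo labelled shRNA control and MDST8 WT whether or not the promoter was a member. All 11 cytosolic ribosomal protein genes tested among the members were higher in LoVo labelled shRNA control than in MDST8 WT, with a median log2 fold change of 1.99, and 61 of the 73 others were as well (median 1.56). RPL3, a protein of the large subunit, had means of 5051, 2596 and 1015 CPM in LoVo labelled shRNA control, LoVo labelled TWIST1 shRNA and MDST8 WT. Of the respiratory chain and ATP synthase genes, 9 of 16 members were higher and 1 lower, as were 28 and 1 of the 64 others. This did not hold in LoVo labelled TWIST1 shRNA. There 2 of these members were higher and 6 lower than in MDST8 WT, with 11 and 10 of the 64 others. COX5A, a subunit of cytochrome c oxidase, had means of 216.5, 111.2 and 96.8 CPM. All 10 protocadherins tested among the members were lower in both LoVo groups than in MDST8 WT, and of the 31 others 28 were lower in LoVo labelled shRNA control. PCDHB13 had means of 0.438, 0.953 and 10.2 CPM. Ribosomal genes have many near-identical processed copies and clustered protocadherins share exons or overlap, so their counts are uncertain. HOXA5, HOXB4 and HOXB13, which pattern the body axis, were higher in both LoVo groups than in MDST8 WT, and HOXC8 and HOXD3 were lower.

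Between the LoVo groups the members were called about as often as other genes. Of the 1844 tested, 432 (23.4%) were called higher with the label TWIST1 shRNA and 513 (27.8%) lower, beside 26.6% and 26.1% of all 14270 genes tested and 24.9% and 26.3% of the 12490 protein-coding promoters tested. The median log2 fold change was -0.08, against 0.01 over all genes tested. For promoters with peaks in both lines 24.6% of 2239 were higher and 25.7% lower. The excess of lower calls turned with the scaling: upper-quartile factors gave 486 higher and 450 lower.

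The members with the widest difference between the LoVo groups were again off in one group. MAGEB2, a cancer-testis antigen on X, had 123, 121 and 125 CPM in LoVo labelled TWIST1 shRNA and 0 counts in LoVo labelled shRNA control and MDST8 WT, at least 780.3-fold higher. KLK8, a secreted serine protease, had 17.8, 18.8 and 16.4 CPM, also with 0 counts in both other groups. PXMP4, a peroxisomal membrane protein, and ZNF175, a zinc finger protein, had 0 counts in LoVo labelled shRNA control, 15.3, 15.7 and 14.9 CPM and 10.6, 8.93 and 9.24 CPM in LoVo labelled TWIST1 shRNA, and 27.1, 29.5 and 26.1 CPM and 34.7, 38.1 and 39.6 CPM in MDST8 WT. These genes were thus undetected in all 3 libraries labelled shRNA control, as TWIST1 was. Of all members, 8 had 0 counts there and at least 5 CPM in LoVo labelled TWIST1 shRNA, out of 53 such genes over all protein-coding promoters. The reverse held at 1 member, out of 3 such genes.

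ROBO2 and SORBS2 went the other way. ROBO2, a receptor of the guidance cue SLIT, had 27, 27.4 and 29.6 CPM in LoVo labelled shRNA control, 0 counts in LoVo labelled TWIST1 shRNA and 80.4, 82.7 and 81.4 CPM in MDST8 WT, at least 156-fold lower between the LoVo groups. SORBS2, an actin-linked adaptor, fell from 14.9, 12.4 and 13.7 CPM to 0.261, 0.175 and 0.0557 CPM, and FGL2, a fibrinogen-like protein, and IGFBP1, an IGF binding protein, had 7.5, 5.9 and 5.61 and 5.22, 4.58 and 6.3 CPM in LoVo labelled shRNA control and 1 and 2 counts in all in the other LoVo group.

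**Figure D5:**
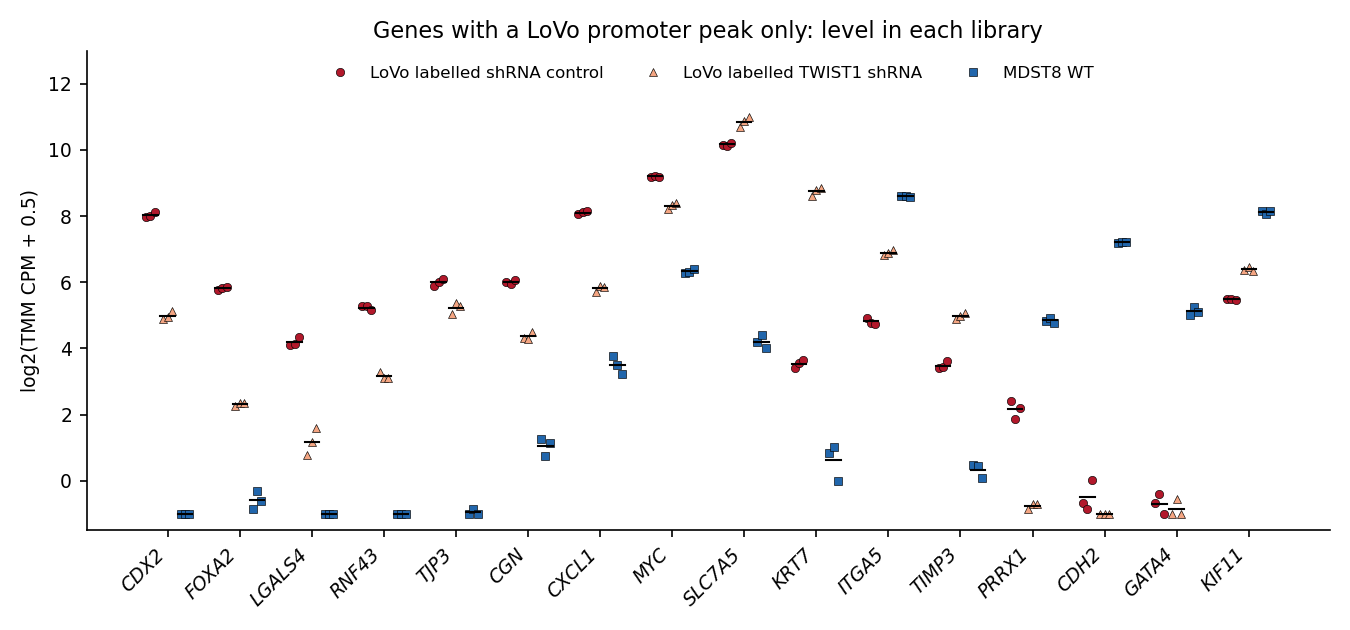
Level of 16 named members as log2 of TMM-normalized CPM plus 0.5 in each library of LoVo labelled shRNA control, LoVo labelled TWIST1 shRNA and MDST8 WT; each point is 1 library and each bar the mean of a group. CDX2 is highest in LoVo labelled shRNA control, KRT7 in LoVo labelled TWIST1 shRNA, and CDH2 and ITGA5 in MDST8 WT.

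In the MDST8 knockout clones, which have no ChIP-seq library here, the members were called about as often as other genes. Of the 1728 tested, 48 (2.78%) were called higher than WT in all 5 clones and 16 (0.926%) lower, beside 3.17% and 1.06% of all 13706 genes tested and 3.0% and 0.991% of the 11911 protein-coding promoters tested. In TG1 11.2% of the members were higher and 7.35% lower, beside 12% and 7.49% of all genes and 11.4% and 7.28% of protein-coding promoters. In TG2 the members stood at 7.52% and 6.37%, all genes at 8.05% and 6.64% and protein-coding promoters at 7.23% and 6.48%. TG3-2 gave 11.2% and 6.13%, beside 10.9% and 6.09% and, for protein-coding promoters, 10.4% and 5.83%. TG3-5 gave 9.72% and 7.81%, beside 11.2% and 7.25% of all genes and 10.0% and 7.1% of protein-coding promoters. TG3-6, the clone with most calls, gave 14.4% and 11.1%, beside 15.3% and 11.7% and, for protein-coding promoters, 14.6% and 11.2%. The median log2 fold change of the members lay between -0.03 and -0.01 in the 5 clones.

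Single members moved strongly in every clone. CACNA1D, a voltage-gated calcium channel, had 0.952, 1.31 and 1.11 CPM in WT and means of 5.12 to 6.77 CPM in the clones, log2 fold changes of 2.18 to 2.57. SLC14A1, a urea transporter, rose from 17.2, 15.1 and 11.2 CPM to means of 59.5 to 239 CPM, PRSS33, a serine protease, from 2.59, 1.36 and 0.959 CPM to means of 6.98 to 121 CPM, and MAF, a bZIP transcription factor, from 2.54, 2.22 and 1.31 CPM to means of 6.25 to 36.5 CPM. The size of the rise thus differed between the clones by far more than their SDs for PRSS33, which had 6.98 ± 0.763 CPM in TG1 and 121 ± 5.14 CPM in TG3-6 (SD, n = 3 each). AOX1, an aldehyde oxidase, fell from 89.1, 90.2 and 92.9 CPM to means of 9.32 to 24.4 CPM, and ABCC9, a regulatory subunit of potassium channels, from 42.8, 43.3 and 39.9 CPM to means of 9.69 to 13.6 CPM. GABPB2, a subunit of the factor GABP, had log2 fold changes of -1.44 to -1.83. SLC7A5, a transporter of large neutral amino acids, fell from 17.8, 20.6 and 15.7 CPM to means of 1.31 to 9.03 CPM. CXCL1 was higher in 4 of 5 clones, all but TG2, with means of 10.6 to 37.7 CPM over the 5, and PRRX1 was lower in 4, all but TG3-6, with means of 8.1 to 41.3 CPM. LoVo held far more SLC7A5 than MDST8, 1148 ± 33.2 CPM with the label shRNA control and 1863 ± 197 CPM with the label TWIST1 shRNA (SD, n = 3 each).

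The listed cell cycle genes were lower or not called in the clones, members and other genes alike. Of the 8 members among 44 mitosis and DNA replication genes, 5 were lower in TG1, 3 in TG2, 3 in TG3-2, 6 in TG3-5 and 5 in TG3-6, and 0 higher. Of the 36 others, 18, 9, 9, 21 and 20 were lower in the same clones and 0 higher, against the 6.09 to 11.7% of all genes given above. TYMS, thymidylate synthase, and E2F2, a cell cycle factor, were lower in all 5 clones, with log2 fold changes of -0.71 to -1.10 and -0.70 to -1.11. BIRC5, the mitotic protein survivin, had means of 131 to 158 CPM against 222 CPM in WT and was called in 4 clones, and CENPF, a kinetochore protein, was called in none. In LoVo labelled TWIST1 shRNA, BIRC5, the spindle kinesin KIF11, CENPF and the cyclin CCNE2 were higher than in LoVo labelled shRNA control (log2 fold changes 1.15, 0.94, 0.85 and 1.29). The cyclin CCNB2, the licensing factor CDT1, E2F2 and TYMS were not called there.

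The LoVo and clone comparisons share no library and were set side by side at the 1585 members tested in both. Of 30 members higher in all 5 clones, 18 (60.0%) were lower in LoVo labelled TWIST1 shRNA and 5 higher, and these 18 were 4.44% of the 405 members lower there. Over all 12132 genes tested in both, 115 of the 303 higher in all clones (38.0%) were lower in LoVo labelled TWIST1 shRNA and 84 (27.7%) higher, and over the 10987 protein-coding promoters 106 of 267 (39.7%) and 74. The difference between members and other genes was not tested. Of 11 members lower in all clones, 4 were higher in LoVo labelled TWIST1 shRNA (ANKLE1, CD163L1, SLC7A5 and TENT5B) and 2 lower (HSD17B2 and KCNJ8), beside 37 and 30 of the 108 such genes over all those tested. TNFAIP3, an inhibitor of NF-kB signaling, had 74.3, 69.9 and 70.7 CPM in LoVo labelled shRNA control, 22.8, 20.7 and 21.7 CPM in LoVo labelled TWIST1 shRNA, 20.6, 25.3 and 21.8 CPM in MDST8 WT and means of 39.8 to 65.8 CPM in the clones. KCNAB2, a potassium channel subunit, had 55.5, 56.4 and 59.3 CPM and 25, 23.1 and 24.1 CPM in the LoVo groups, 1.75, 1.77 and 1.21 CPM in MDST8 WT and means of 2.64 to 15.5 CPM in the clones. TNFAIP3, KCNAB2 and SLC7A5 are among 27 genes that the study picked from these same samples, so their pattern is not independent evidence. The study lists TNFAIP3 and KCNAB2 as higher and SLC7A5 as lower in both its knockout and its knockdown cells. By the LoVo labels kept here, each of these genes went opposite ways in LoVo and in the clones. In a fit of all 24 libraries the LoVo effect differed from the mean clone effect at 1401 of 1987 members (70.5%) and at 69.3% of all genes tested, each with an adjusted p-value below 0.05 (edgeR quasi-likelihood test).

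Among the 8 members with the lowest peak p-values, those with RNA differed between the lines in both directions. FYCO1, an adaptor of autophagosome transport, had the member peak with the lowest p-value (5.54e-09, fold enrichment 5.10, q = 0.000426), which lay at chr3:45994778-45995629 with its summit 338 bp downstream of the 5′ end, in an intron of the gene. Its RNA was 59.7, 61.5 and 60.0 CPM in LoVo labelled shRNA control, 71.7, 71.6 and 76.5 CPM in LoVo labelled TWIST1 shRNA and 43, 40.8 and 40.4 CPM in MDST8 WT, and of the 3 pairs only the last differed past the threshold (log2 fold change 0.82). The peak of FRYL, a gene related to the Drosophila gene furry, had a p-value of 2.71e-08. FRYL RNA was 74.7, 73.4 and 68.4 CPM in LoVo labelled shRNA control, 53, 52.1 and 49.6 CPM in LoVo labelled TWIST1 shRNA and 78.7, 90.3 and 88.4 CPM in MDST8 WT, and the last pair differed past the threshold. ECD and FAM149B1 share a peak, with a p-value of 7.17e-08, and overlap at their 5′ ends on opposite strands, so that reads from the overlap, counted without strand, cannot be told apart. ECD was lower in both LoVo groups than in MDST8 WT (-0.77 and -1.22), and FAM149B1 in LoVo labelled shRNA control (-1.01). GLIS2, a Krüppel-like zinc finger factor with a peak p-value of 4.47e-07, was higher in LoVo, with 26.4, 25.9 and 26.2 CPM in LoVo labelled shRNA control, 30.3, 36.8 and 37.2 CPM in LoVo labelled TWIST1 shRNA and 9.47, 10.2 and 11.2 CPM in MDST8 WT. The other 3 of the 8 members with the lowest p-values had 0 counts in all libraries of these groups: OR1L6, an olfactory receptor, ENSG00000288629, and USP17L22, a deubiquitinase of a multicopy family whose reads cannot be placed with certainty.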

How the data were processed

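ChIP-seq peaks were called by the authors with MACS2 (version 2.2.7.1) after Bowtie2 (version 2.4.5) alignment to hg38. The deposited peak lists hold a score (10 times the −log10 p-value, not used here), fold enrichment as a signal value, summit positions, and p- and q-values as −log10, kept at an unadjusted p-value below 0.05. The sample titles name an input control for each line, but the sources used here do not say whether peaks were called against it. RNA-seq reads were trimmed with Trim Galore (0.6.6), aligned with HISAT2 (2.1.0) and counted per gene with featureCounts (2.0.0), per the file headers without strand although the kit was directional, and the deposited files hold raw counts.

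Promoters and peaks were overlapped by at least 1 bp. For the filter on low counts, 1 was added to each RPM, the values were averaged geometrically over a line's libraries, and 1 was taken off. The result had to reach 1 RPM in the line (in either line between lines), so genes with 0 counts in some libraries could pass. Tests used edgeR 4.0.16 (quasi-likelihood test, TMM) in R 4.3.3, with 6 LoVo, 18 MDST8 or all 24 libraries in a fit. Calls needed a log2 fold change beyond 0.58 either way with a Benjamini-Hochberg adjusted p below 0.05. Standard errors of log2 fold changes are approximate, taken as the fold change divided by the square root of the F statistic of the edgeR test. limma 3.58.1 and DESeq2 1.42.0 were alternatives. Intervals are exact binomial at 95% and cover counting error only. Folds against groups without counts used a floor of 3 counts per library, both sides in RPM of total counts without TMM factors. The scripts were tested on simulated data. Named genes were the 8 members with the lowest peak p-values, the members with the widest called change in each direction for LoVo against LoVo, LoVo against MDST8 and the clones against WT among those of at least 5 CPM, and all members of the lists. For LoVo against LoVo and LoVo against MDST8, the widest changes were taken only from genes whose groups did not overlap. The members and lists were chosen with earlier results of these data known. Some results that meet these rules are not reported here.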

Additional observations from a re-analysis of the deposited data

Results flagged for a closer look

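At 22 members the LoVo libraries labelled TWIST1 shRNA were called to one side of those labelled shRNA control and all 5 MDST8 knockout clones to the other side of WT. They stand among 1585 members tested in both comparisons. Over all 12132 genes tested in both, 115 were lower in LoVo labelled TWIST1 shRNA and higher in all clones, and 37 the reverse. Whether opposite calls were more frequent among the members was not tested. The 22 members were picked for their opposite calls, so a test of the difference between the 2 effects on the same libraries is not independent of the choice and is not given for them. Since the LoVo labels ran against the TWIST1 counts, the sign of each value follows the labels. An exchange of the 2 LoVo labels would turn these calls to the same side as the clones, and which labels hold was not tested. Values below are the LoVo effect minus the mean clone effect on the log2 scale.

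At 4 members LoVo was higher and the clones lower. TENT5B, a poly(A) polymerase, stood at 6.70, with means of 0.330 CPM in LoVo labelled shRNA control, 12.9 CPM in LoVo labelled TWIST1 shRNA and 4.87 CPM in MDST8 WT. ANKLE1, a nuclease, stood at 5.81, with 0.543, 14.1 and 18.2 CPM. CD163L1, a scavenger receptor, stood at 5.19, with 0.277, 4.28 and 12.7 CPM. SLC7A5 stood at 2.95.

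At 18 members LoVo was lower and the clones higher. IGFL4 stood at -4.24, KCNAB2 at -3.86, CACNA1D at -3.83, CADPS2 at -3.63, PMEPA1 at -3.08, CCPG1 at -2.91 and TNFAIP3 at -2.88. IL1B, the cytokine interleukin-1 beta, stood at -2.79, MTUS1 at -2.71, SH3BGRL2 at -2.61, PARP14 at -2.57, NKD2 at -2.53 and MAP3K1, a kinase of the stress pathway, at -2.52. CAPS stood at -2.22, ATL1 at -2.18, DNAI3 at -2.08, ANXA9 at -1.62 and C5orf24 at -1.39. ANXA9 only just passed the threshold between the LoVo groups, with a log2 fold change of -0.583. CAPS and IGFL4 were among those with low levels. Their means were 1.83 and 2.46 CPM in LoVo labelled shRNA control and 0.871 and 0.289 CPM in LoVo labelled TWIST1 shRNA.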

How the results depend on the processing

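Most values kept their side of the threshold. Of 1807 alternatives for the named genes, 1786 gave the same call, 2 lost it, 4 gained it and 15 turned the sign of a value that was not called. With DESeq2 or upper-quartile factors the number of members called stayed within 1.5 times. Relative to TMM, the median log2 fold change of all genes tested moved by over 0.1 with upper-quartile factors for LoVo labelled TWIST1 shRNA against MDST8 WT (0.12) and with log2(count + 1) for both LoVo groups against it (-0.14 for shRNA control and -0.11 for TWIST1 shRNA).

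The number of promoters fell to 779 with peaks of p at most 0.001, to 19 with q at most 0.05 and to 999 without an MDST8 peak within 5000 bp. With the 19, of which 10 or 11 were tested, 45.5% were lower in LoVo labelled shRNA control than in MDST8 WT, 18.2% higher in LoVo labelled TWIST1 shRNA, 10.0% higher and 0% lower in all clones, 20% higher in TG1, TG3-2 and TG3-5, 30.0% higher in TG3-6, and 0% lower in TG1, TG2, TG3-2, TG3-5 and TG3-6. At p of at most 0.001, 0.418% were lower in all clones.

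The share of members expressed in LoVo labelled shRNA control, LoVo labelled TWIST1 shRNA and MDST8 WT was 60.7%, 62.8% and 58.4% at 0.5 RPM and 50.4%, 50.8% and 47.4% at 5 RPM. It was 60.4%, 62.0% and 58.2% with a window of 500 bp, 51.3%, 52.1% and 47.7% with 3000 bp, 63.2%, 64.2% and 60.5% for peaks of p at most 0.001, and 52.6% in each with q at most 0.05. It was 52.9%, 54.7% and 50.5% without an MDST8 peak within 5000 bp, 57.8%, 59.4% and 56.2% with the summit inside the window, and 49.4%, 50.1% and 46.0% with the 5′ end of any transcript. CATCTG lay near 6.43% of summits with 3000 bp, 6.46% with any transcript and 11.7% within 100 bp, and CANNTG near 37.2%.

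Leaving out 1 library at a time gave 23 to 23.9% higher and 27.1 to 27.5% lower between the LoVo groups, 34.5 to 35.3% and 28.8 to 29.2% for LoVo labelled shRNA control against MDST8 WT, and 32.1 to 33.0% and 28.7 to 29.6% for LoVo labelled TWIST1 shRNA. For all 5 clones it gave 2.60 to 3.13% and 0.752 to 1.10%, for TG1 10.9 to 12% and 6.83 to 7.63%, for TG2 6.94 to 7.65% and 6.13 to 6.66%, for TG3-2 11 to 11.5% and 5.32 to 6.20%, for TG3-5 9.66 to 10.8% and 6.65 to 7.88%, and for TG3-6 14 to 14.8% and 10.1 to 11.8%. The shares expressed ran from 57.3 to 57.8% in LoVo labelled shRNA control, 59.1 to 59.3% in LoVo labelled TWIST1 shRNA and 55.3 to 55.5% in MDST8 WT.

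The values that turned were all near 0 on the log2 scale. For LoVo against LoVo these were DSC2 (0.0433 with upper-quartile factors, 0.00616 without 1 library), CDT1 (0.0129 and 0.0480), CCNB2 (-0.0267 without the filter, -0.00209 without 1 library) and E2F2 (-0.0113 without the filter). For LoVo labelled TWIST1 shRNA against MDST8 WT they were TNFAIP3 (0.0627 and 0.0382) and TGFB2 (-0.00121 with log2(count + 1)). PDGFRB, in LoVo labelled shRNA control against MDST8 WT, gave -0.00412 with upper-quartile factors, -0.0466 with voom, -0.171 with log2(count + 1), -0.294 without 1 library and -0.00768 with the replicate block.

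The replicate letters did not pair the samples, since same-letter pairs of MDST8 groups had correlations of deviations from -0.0713 to 0.0771, none of 45 above 0.1. With the letter as a replicate block, 35.9% of the members were higher and 29.1% lower in LoVo labelled shRNA control than in MDST8 WT, 2.78% higher and 0.926% lower in all clones, and in single clones the shares were 7.41 to 14.2% and 6.25 to 11.1%. The cause of these shifts was not tested. Peaks from 1 library per line and total counts of 16567606 to 22217009 limit what the lists and the lowest levels can show.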

Other observations

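Zinc finger protein genes, most of them DNA-binding repressors, had 84 members. Of the 69 tested, 18 were higher and 28 lower in LoVo labelled shRNA control than in MDST8 WT, and of the 409 others 68 were higher and 210 lower. Between the LoVo groups 17 members were higher and 17 lower of 57, and 111 and 60 of the 331 others. Of the 100 members tested on X, 21 were higher and 49 lower in LoVo labelled shRNA control than in MDST8 WT, and of the 355 other promoters tested on X 83 were higher and 163 lower.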
